A study of Mus musculus with 4 samples.

Results

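Clustered receptor sites are places in the genome where several peaks of glucocorticoid receptor (GR) binding lie close together. They were taken from the peak list of mouse mammary cells treated with corticosterone for 1 h: a peak was a member if the centre of at least 1 other peak of that list lay within 10 kb on the same chromosome, and such peaks were chained into clusters. Of 5638 peaks in the list, 969 were members (17.2%), and they formed 447 clusters. The other 4669 peaks are called single peaks below. Members were thus selected on the measured positions of their peaks at 1 h, and their number, spacing and strength at 1 h are a description. The choice of 10 kb sets the number of members: 395 remained in 195 clusters with a link of 5 kb, and 1678 in 710 clusters with 20 kb.

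The receptor's sites were mapped with ChIP-seq, the sequencing of DNA recovered with an antibody to GR, in cells of the 33AP1C9 line, which descends from mouse mammary C127 cells, and 3 peak lists were used. The untreated cells, the cells given 600 nM corticosterone for 1 h and those given it for 12 h all carried an integrated MMTV-pp7 reporter and a GFP-tagged PP7 coat protein, and all had been kept in hormone-stripped serum. Each condition had 1 library, of 79203826, 90556119 and 97749688 tags in that order, so no test between conditions was possible and intervals cover counting error only. The antibody mix carries a different Santa Cruz catalogue number in the label of each sample, so a change of antibody and a change of time cannot be told apart.

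Corticosterone is the main glucocorticoid of rodents. On binding it, GR leaves its HSP90-containing chaperone complex, enters the nucleus and binds DNA, usually as a dimer on a palindrome of short receptor sites, and most of its sites lie in enhancers away from gene starts. Several enhancers near each other can serve the same gene, and GR target genes such as Tsc22d3 are known for groups of such sites.

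The promoter sequences below are shown because they are the members whose DNA could be read: 11 members (1.14%) had their centre within 250 bp before to 50 bp after an annotated gene start. The 250 bases before each start, and not those after it, were searched on both strands for the palindrome GNACANNNTGTNC, a relaxed form of the receptor's own element. Of these 11 members, 5 held a match in that window, and all 5 were also listed at 12 h. Of the 6 without a match, 3 were listed at 12 h. Among all members 47.9% were listed, and being listed follows strength (values below). The 5 with a match held 27.3 to 129.3 tags at 1 h (normalised as explained below), and the 6 without it 19.8 to 40.3. These members were not matched on strength, so whether a match goes with being listed was not tested. Across 32817 annotated promoter windows of the same length 0.475% held the palindrome. By window, 5 of 12 at members held it (41.7%, Wilson interval 19.3 to 68.0%), as did 11 of 55 at single peaks (20%, 11.6 to 32.4%). The stricter form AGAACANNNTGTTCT was in none of the 12 windows and in 3 of all windows. A match is a description of letters, and no match says only that these letters are not in this window.

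The sequences run 5′ to 3′ on the strand of the gene, cover the 250 bases before its start, and come from RefSeq (GRCm38.p6). Capitals mark the palindrome. The first 5 hold it, and the last 2 are contrasts without it that were not listed at 12 h. The 3 without it that were listed at 12 h are not printed.
Slc10a6: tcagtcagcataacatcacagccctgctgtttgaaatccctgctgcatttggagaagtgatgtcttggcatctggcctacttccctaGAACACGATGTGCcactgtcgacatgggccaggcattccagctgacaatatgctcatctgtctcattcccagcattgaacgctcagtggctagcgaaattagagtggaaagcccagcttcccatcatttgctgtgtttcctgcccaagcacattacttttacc
Gm33945: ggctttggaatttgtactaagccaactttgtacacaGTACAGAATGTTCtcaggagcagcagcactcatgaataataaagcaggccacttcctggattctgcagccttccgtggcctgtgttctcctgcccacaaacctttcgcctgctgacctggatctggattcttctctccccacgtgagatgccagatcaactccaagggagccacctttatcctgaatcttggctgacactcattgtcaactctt
Mir100hg: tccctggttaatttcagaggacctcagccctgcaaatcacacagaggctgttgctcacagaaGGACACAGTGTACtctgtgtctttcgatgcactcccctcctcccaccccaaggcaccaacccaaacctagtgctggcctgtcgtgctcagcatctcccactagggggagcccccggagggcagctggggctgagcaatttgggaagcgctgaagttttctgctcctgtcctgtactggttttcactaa
Gm13415: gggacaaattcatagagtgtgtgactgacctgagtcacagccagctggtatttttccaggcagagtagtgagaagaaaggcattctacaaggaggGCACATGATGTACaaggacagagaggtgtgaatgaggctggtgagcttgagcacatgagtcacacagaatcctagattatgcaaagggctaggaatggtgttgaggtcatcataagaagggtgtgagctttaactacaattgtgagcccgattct
Mt1: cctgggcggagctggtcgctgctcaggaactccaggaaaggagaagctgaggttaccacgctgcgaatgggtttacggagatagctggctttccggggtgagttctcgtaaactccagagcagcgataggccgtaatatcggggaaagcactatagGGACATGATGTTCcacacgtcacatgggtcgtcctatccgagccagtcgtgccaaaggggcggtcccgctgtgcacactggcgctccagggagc
Orm3: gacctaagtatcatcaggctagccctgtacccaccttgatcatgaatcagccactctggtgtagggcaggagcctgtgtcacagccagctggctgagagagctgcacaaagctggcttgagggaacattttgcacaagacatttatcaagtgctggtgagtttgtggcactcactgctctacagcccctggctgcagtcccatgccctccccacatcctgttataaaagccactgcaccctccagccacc
Notch4: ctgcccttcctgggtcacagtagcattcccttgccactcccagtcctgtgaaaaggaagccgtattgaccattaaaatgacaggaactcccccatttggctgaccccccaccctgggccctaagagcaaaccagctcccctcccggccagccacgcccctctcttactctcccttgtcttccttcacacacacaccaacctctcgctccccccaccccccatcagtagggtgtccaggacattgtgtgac

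Slc10a6, a transporter of steroid sulfates (chr5:103629404-103629653, minus strand), had its member peak centred 156 bp before the start. This member held 1.77 normalised tags in untreated cells, 129 at 1 h and 98.6 at 12 h; normalised tags are tags scaled to a library of 10000000. Being above the untreated library is a condition of listing. The member was lower at 12 h than at 1 h (log2 ratio -0.39, 95% counting interval -0.52 to -0.27). Its neighbour, 8.99 kb away inside the gene, had 14.8 (1 h) and 21.1 (12 h), a log2 ratio of 0.51 (0.19 to 0.83), so the members of this cluster went opposite ways.

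Mt1 and Mt2 encode metallothioneins, metal-binding proteins long known as glucocorticoid targets. The Mt1 promoter member (sequence window chr8:94178839-94179088, plus strand) held 1.01, 27.3 and 12.8 tags in the untreated, 1 h and 12 h libraries. The other member of the cluster, 1.01 kb from Mt2, held 0.758, 110.5 and 46.2. Both were lower at 12 h than at 1 h, by similar log2 ratios of -1.09 (-1.42 to -0.78) and -1.26 (-1.42 to -1.10).

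Noncoding genes carry the remaining matches. At the start of Gm33945 (chr10:21573761-21574010, minus strand) the member held 1.52, 90 and 112 tags in the untreated, 1 h and 12 h libraries. At Mir100hg (chr9:41474643-41474892, plus strand), the host gene of miR-100, the values were 1.64, 62.9 and 19.8. At Gm13415 (chr2:24440143-24440392, plus strand), inside the span of Pax8, they were 2.15, 49.7 and 23.1. The Gm33945 site thus held more tags at 12 h than at 1 h, while those at Mir100hg and Gm13415 held fewer.

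Orm3 and Notch4 lack the palindrome in the printed stretch. Orm3 (chr4:63355908-63356157, plus strand) belongs to the alpha-1-acid glycoprotein genes, which encode acute-phase plasma proteins, and its promoter member held 1.77 tags in untreated cells and 24.1 at 1 h. Its cluster also had members 0.486 and 0.561 kb from Orm1, a gene of the same family, with 77.5 and 47.4 tags at 1 h and 38.4 and 37.4 at 12 h. Those near Orm1 were listed at both times and the Orm3 member at 1 h alone. Notch4, a Notch family receptor gene (chr17:34564045-34564294, plus strand), held 1.01 tags in untreated cells and 22.3 at 1 h at its start, beside a member of 10.2 tags 6.70 kb away, and neither was listed at 12 h.

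Most clusters were pairs. Clusters of 2 peaks numbered 387 (86.6%), and 60 clusters had 3 or more, holding 195 members. There were 50 clusters of 3, 7 of 4, 2 of 5 and 1 of 7. The median distance from the first to the last centre was 6.04 kb, and the longest was 31.9 kb, in the cluster of 7 near Tsc22d3. The share of peaks that were members ran from 5.59% on chromosome 18 (9 of 161) to 23.0% on chromosome 17 (47 of 204). At the edge of the rule, a pair nearest to Pgrmc2 had centres 9.99 kb apart with 40.9 and 23.0 tags, and was included. A pair of sites at H6pd, 10.05 kb apart with 20.8 and 112 tags, was not.

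Members were stronger than single peaks at 1 h. The median member held 23.2 tags (quartiles 15.9 and 40.2), against 17.4 (12.1 and 29.2) at single peaks. The list was divided into 10 classes of nearly equal size by the authors' caller score. The highest, class 10, held 15.4% of members and 8.87% of single peaks, and the lowest, class 1, 5.26% and 10.99%. In untreated cells both groups had a median of 1.39 normalised tags, a level held down by the caller's demand for 6 times the untreated tags. Within a cluster the strongest member had a median of 1.64 times the tags of the weakest (quartiles 1.20 and 2.65), and in 13 clusters at least 10 times. The widest range, 31.4 times, was in the cluster nearest to Ptpn1, a protein tyrosine phosphatase gene.

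A smaller share of members than of single peaks lay inside protein-coding genes, 375 of 969 (38.7%) against 2041 of 4669 (43.7%). Members outside genes had a median distance of 41.4 kb to the nearest one, and single peaks 39.0 kb. In 158 clusters (35.3%) all members lay inside 1 gene. The genes holding most members were Tns1 with 7 in 2 clusters, Zbtb16 with 5, and Csmd3, Galk2, Vmp1 and Mertk with 4 each. Listed at 12 h were 5 of the 7 members in Tns1, 4 of the 5 in Zbtb16, all 4 in Csmd3, 2 of 4 in Vmp1 and in Mertk, and 1 of 4 in Galk2.

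Members were listed at 12 h somewhat less often than single peaks of like strength, a difference that was not seen once local fold was matched too (values below). A 1 h peak counted as listed when it overlapped a 12 h peak by at least 1 bp, which held for 43.2% of all 1 h peaks. Of the 969 members 464 were listed (47.9%, Wilson interval 44.8 to 51.0%), and of the single peaks 1972 (42.2%, 40.8 to 43.7%). Being listed follows strength, so single peaks were weighted to the members' distribution over the 10 score classes, and 52.5% of them were then listed. The difference, members minus single peaks, was -4.57 percentage points (95% counting interval -7.60 to -1.54). Peaks of the same cluster share a region and are not independent, which makes such intervals too narrow. The untreated library served as control for calling peaks at 1 h and at 12 h, so listing at either time depends on that shared control.

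Members were below single peaks by most in score classes 7 to 9. In class 7 42.5% of members (34.0 to 51.4%) and 52.3% of single peaks (47.6 to 56.9%) were listed. In class 8 64 of 130 members were listed (49.2%, 40.8 to 57.7%), against 65.2% (60.6 to 69.5%) of single peaks. In class 9 the values were 70.5% (61.9 to 77.9%) and 80.5% (76.6 to 84.0%). In class 3 members were also lower, at 12.3% (6.08 to 23.2%) against 19.7% (16.5 to 23.4%). In class 4 the order was the other way, at 38.5% (28.4 to 49.6%) and 25.5% (21.8 to 29.6%). At the top and at the bottom the groups were close, with 92.6% and 94.9% in class 10 and 15.7% and 14.04% in class 1.

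**Figure D1:**
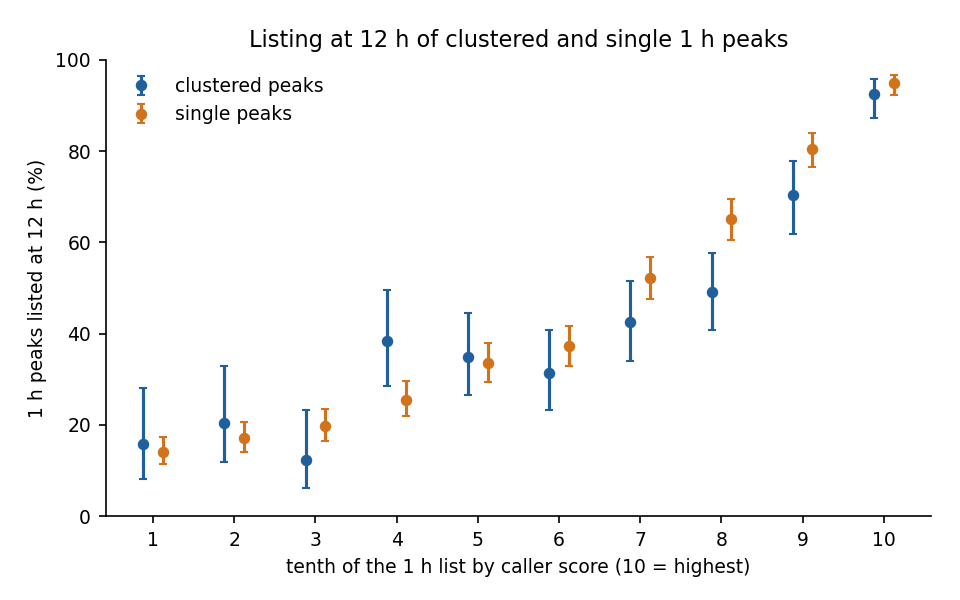
Share of 1 h peaks listed at 12 h (percent, vertical axis) in each of 10 classes of the 1 h list by caller score (horizontal axis), for clustered (blue) and single (orange) peaks, with Wilson 95% intervals. Both rise with score, and the clustered peaks lie lower in class 8, at 49.2% against 65.2%.

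The share listed was lower at members with closer neighbours. Members whose nearest peak lay under 1 kb away were listed in 31.8% of cases (21 of 66), against 51.7% of single peaks of like strength. At 1 to 2 kb the share was 39.5% (45 of 114) against 54.3%, and at 2 to 5 kb 42.3% (91 of 215) against 54.7%. At 5 to 10 kb it was 53.5% (307 of 574) against 51.3%. For the 395 members with a neighbour within 5 kb the difference was -14.4 points (-18.9 to -9.89), and for the 574 others it was 2.18 points (-1.48 to 5.83). Whether these differences differ was not tested.

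The median fold over the local region was also lower at members with a neighbour within 5 kb, but did not follow the listed share class by class. It was 8.25 under 1 kb, 8.77 at 1 to 2 kb, 8.72 at 2 to 5 kb and 12.2 at 5 to 10 kb. Local folds under 7 made up 19.7, 24.6, 26.5 and 8.19% of members in these classes. To list a peak the caller required at least 6 times the tag density of the surrounding 10 kb, a region that reaches 5 kb to each side. The nearest neighbour lay inside it for the 395 closely spaced members and outside it for the other 574. The median local fold at 1 h was 8.53 at members with a neighbour within 5 kb and 14.8 at single peaks of like strength, while at the more widely spaced members it was 12.2 against 13.8. Local folds under 7, close to the minimum, were found at 98 of the 395 closely spaced members (24.8%) and at 10.1% of single peaks. When single peaks were matched on score and local fold together, the difference over all members turned to 2.48 points (-0.91 to 5.88), and that of the closely spaced members became -0.53 (-6.36 to 5.30). At the widely spaced ones it was 4.56 (0.97 to 8.14). This match used 5 score classes in place of 10, and the share of each change in the result was not tested. The caller had removed 17.4% of the 1 h and 21.9% of the 12 h candidates that passed the control filter for too low a local fold. A member missing from the 12 h list may have failed at least 1 of the caller's filters, and the list does not say which. It may also lie beside a 12 h peak whose window did not overlap it. Of the 12 h peaks without a 1 h partner, 5 were centred within 0.6 kb of a member. Peaks closer than the caller's minimum distance were not called separately.

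**Figure D2:**
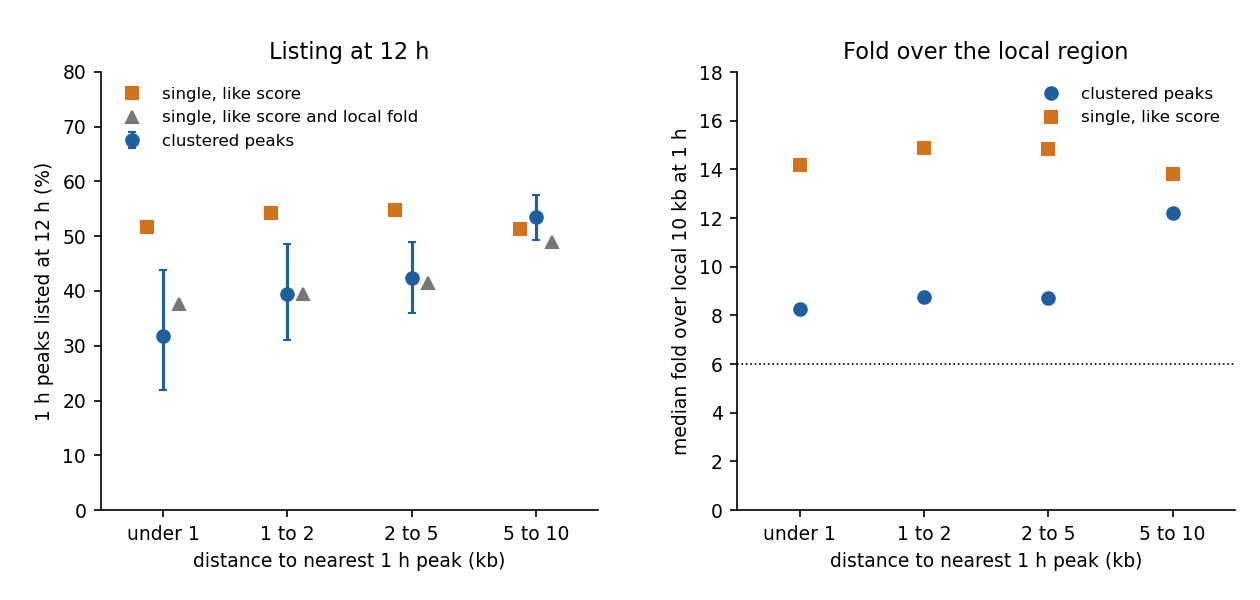
Left, share of 1 h peaks listed at 12 h (percent) by distance to the nearest 1 h peak (kb): members with Wilson 95% intervals (circles), single peaks weighted to like score (squares) and to like score and local fold (triangles). Right, median fold over the local 10 kb at 1 h for members and for single peaks of like score, with the caller's minimum of 6 dotted. Members within 5 kb of another peak lie below the squares on the left and at local folds of 8.25 to 8.77 on the right.

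Members other than the strongest of their cluster were less often listed at 12 h than single peaks of like score. The strongest members were listed in 287 of 447 cases (64.2%), the same as the 64.2% of single peaks of like strength. The other members were listed in 177 of 522 cases (33.9%), against 42.4%, a difference of -8.47 points (-12.5 to -4.43). Among other members with a neighbour within 5 kb 55 of 216 were listed (25.5%), against 47.4% of single peaks of like strength, and their median local fold was 7.405. With single peaks matched on local fold as well, this difference was -4.48 points (-12.6 to 3.67). So matched, the difference was 0.64 points (-4.10 to 5.39) over all other members and 4.63 (0.66 to 8.61) over the strongest, so the shortfall of the other members was not seen.

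All members were listed at 12 h in 100 clusters (22.4%), some in 221 (49.4%) and none in 126 (28.2%). Peak by peak, 47.9% of members were listed, 361 of the 774 peaks in pairs (46.6%) and 43.2% of all 1 h peaks. Whether the split differs from that of unrelated peaks with such shares was not tested. In the 387 pairs both peaks were listed in 94, the stronger alone in 144, the weaker alone in 29 and neither in 120. Pairs under 1 kb apart were both listed in 1 of 28 cases (3.57%), pairs 5 to 10 kb apart in 74 of 233 (31.8%). Where the stronger peak had 4 or more times the tags of the weaker, it alone was listed in 23 of 44 pairs, both in 17 and neither in 3. Where it had under 2 times the tags, neither was listed in 104 of 254 pairs and both in 52. These classes were not matched on strength, which listing follows.

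**Figure D3:**
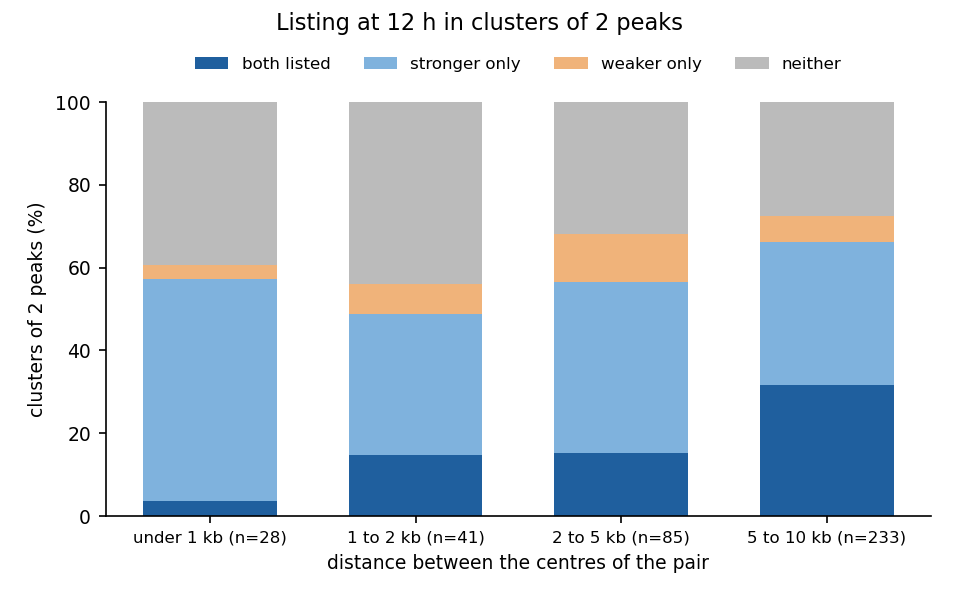
Clusters of 2 peaks by the distance between their centres (horizontal axis, with the number of pairs), split into both listed at 12 h, the stronger only, the weaker only and neither (percent, stacked). Both peaks were listed in 3.57% of pairs under 1 kb and 31.8% of pairs at 5 to 10 kb.

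The cluster of 7 near Tsc22d3, the gene of the anti-inflammatory regulator GILZ, was listed whole at 12 h (chromosome X, 140505853 to 140538018). From the first to the last position its members held 86.6, 85.4, 98.4, 55, 36.9, 82.9 and 19.3 tags at 1 h, and 92.1, 73.1, 98.2, 34, 48.6, 105.5 and 11.4 at 12 h. The untreated library held between 0.253 and 1.14 normalised tags at these sites. The strongest member at 1 h, 26.0 kb from the gene, was level between the libraries (98.4 and 98.2 tags, 95% counting interval of the log2 ratio -0.14 to 0.13). Of the sites nearer to the gene, those 12.15 and 10.2 kb from it held more tags at 12 h (log2 ratios 0.40 and 0.35), and those 19.2 and 1.65 kb from it fewer (-0.70 and -0.77).

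In Zbtb16, which encodes the zinc finger transcription factor PLZF, 5 members lay inside the gene over 16.5 kb (chromosome 9, 48723688 to 48740426). The strongest held 0.379 tags in untreated cells, 250.2 at 1 h and 421 at 12 h, a log2 ratio of 0.75 (0.68 to 0.82). The member next to it held 21.6 and 18.5. The 3 members 12.7 to 16.5 kb from it held 79, 145 and 71.3 tags at 1 h, and of these the second and the third held 144 and 92.7 at 12 h. The member of 79 tags was not listed at 12 h. Its local fold at 1 h was 8.27, and no 12 h value is given for it. In the 4 members near Ptpn1 (chromosome 2, 167844622 to 167867133) the leading site held 433 and 443 tags at 1 h and 12 h, while the next 2 held 132 and 48.6, and 149.6 and 63.2 (log2 ratios -1.44 and -1.24). The leading site was level and its neighbours were lower, and the weakest member, of 13.8 tags, was listed at 1 h alone.

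**Figure D4:**
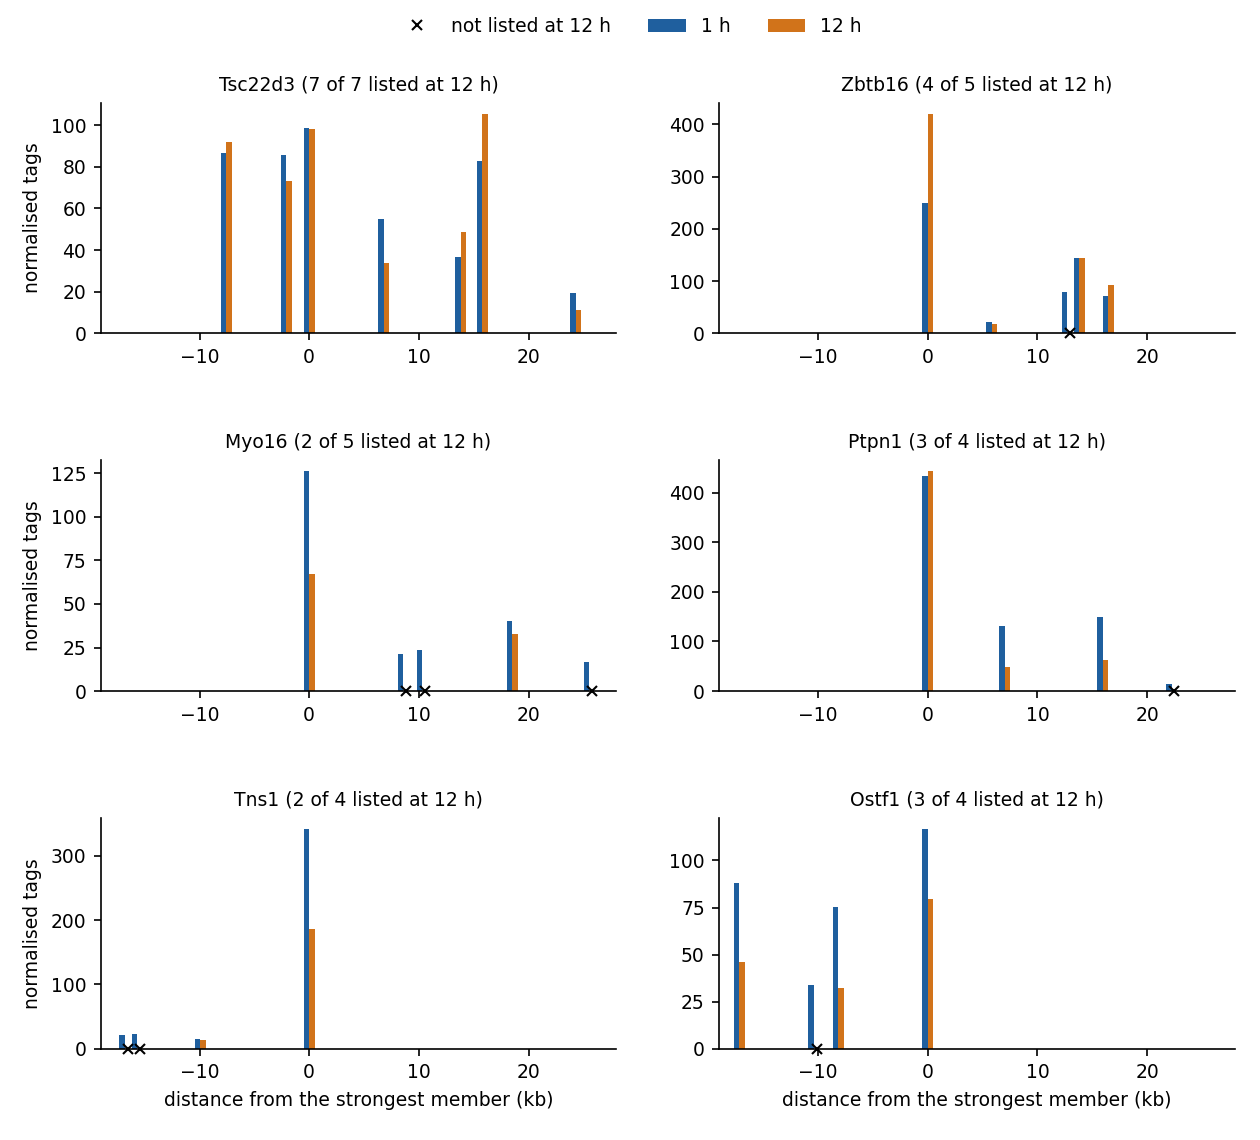
Normalised tags (vertical axis, separate scale per panel) at 1 h (blue) and 12 h (orange) of each member of the 6 largest clusters, by distance from the strongest member (kb); a cross marks a member not listed at 12 h, for which no 12 h value is given. All 7 members near Tsc22d3 are listed at both times, and 2 of 5 near Myo16 are.

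Other large clusters were listed in part. In Tns1, which encodes the adhesion protein tensin, a cluster of 4 (chromosome 1, 74027738 to 74044822) held 342, 14.9, 22.6 and 21.4 tags from the strongest member outward. The first 2 of these were listed at 12 h, with 186 and 13.3 tags, and the adjoining pair of 22.6 and 21.4 tags was not. A second Tns1 cluster, of 3 members, was listed whole, with 24.2, 198 and 105 tags at 1 h and 22.5, 170.5 and 94.7 at 12 h. Near Myo16, an unconventional myosin gene, the members of 126 and 40.1 tags were listed at 12 h (67.3 and 32.9), and those of 23.3, 21 and 16.5 were not. Near Ostf1 3 of 4 members were listed, with 117, 87.9 and 75.1 tags at 1 h and 79.4, 46 and 32.1 at 12 h.

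Inside Vmp1, an autophagy gene whose span holds the hairpin of the microRNA gene Mir21a, 4 members lay over 20.8 kb. The first of them was 3.14 kb from that hairpin. This first member held 1.01, 31.1 and 10.5 tags in the untreated, 1 h and 12 h libraries, and the strongest held 1.39, 106 and 47. Both were lower at 12 h than at 1 h, and the members of 34.8 and 17.6 tags were listed at 1 h alone. In Mertk, a receptor tyrosine kinase gene for the clearance of dying cells, tags at the strongest member were 126 at 1 h against 35.1 at 12 h, and at its neighbour 31.6 against 28. In Galk2, a galactokinase family gene, the weakest of 4 members at 1 h (16.7 tags) was the one listed at 12 h (12.6), while those of 30.4, 25.3 and 17.9 were not. Near Gm536 1 of 4 members was listed, with 83.9 and 19.8 tags.

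Among the clusters with the highest summed score, Hhat, which encodes a Hedgehog acyltransferase, had members of 339.6 and 147 tags 2.82 kb apart, and near Zfp36l2, an mRNA decay factor gene, members of 256 and 162 tags lay 3.18 kb apart. In both the stronger was listed at 12 h, with 210.1 and 137 tags, and the weaker was not, at local folds of 9.42 and 10.01 at 1 h. The clusters of 3 near Fth1, the ferritin heavy chain gene, and near Epn2, an endocytic adaptor gene, were listed whole. Near Epn2 the members held 42.5, 31.1 and 19.8 tags at 1 h and 32, 14.4 and 16.5 at 12 h. Those near Fth1 held 42.5, 42.4 and 40.2 tags at 1 h and 16.2, 21.5 and 31.9 at 12 h, so that sites nearly equal at 1 h were unequal at 12 h. In Vps13d, a lipid transfer protein gene, they held 22.2, 45.3 and 12.6 at 1 h and 15.3, 22.5 and 16.8 at 12 h.

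The strongest cluster with no member listed at 12 h lay in Adam12, a metalloprotease gene (chromosome 7, 134107856 to 134121250), with 56.8, 46.5 and 20.2 tags at 1 h. The untreated library held 2.90, 1.52 and 2.02 there. Near Mical2, an actin-oxidising enzyme gene, 3 members of 25.1, 40.6 and 31.6 tags were not listed at 12 h either. In Cdkal1 the members held 72.2 and 17.1 tags, near Klf14, a Krüppel-like factor gene, 53.2 and 33, and near Mreg 46.9 and 31.4. The pairs near Klf14 and Mreg were 1.76 and 0.78 kb apart, and their weaker members had local folds of 6.02 and 8.02. No 12 h tag count is given for a site outside the 12 h list.

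At members listed at both times the 12 h library mostly held fewer tags, as it did at single peaks. The log2 ratio of 12 h over 1 h had a median of -0.53 (quartiles -0.99 and -0.10) over 464 members, against -0.58 at single peaks weighted to like strength. Tags were fewer at 373 members and more at 91. At least 2-fold lower were 113 members (24.4%), where 24.5% of all shared sites were, and at least 2-fold higher 4 (0.862%), where 1.44% of all shared sites were. In the 100 clusters listed whole, the summed tags had a median log2 ratio of -0.51 (quartiles -0.85 and -0.13), with 85 lower and 15 higher. The lowest was near Tmem170b, where they were 219.8 (1 h) and 58.5 (12 h), and the highest near Tmem106b, a lysosomal protein gene, with 140.5 and 243; these were named after their values were seen.

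Neighbours in a cluster often differed in ratio. For 134 adjacent pairs of members listed at both times, the log2 ratios differed by a median of 0.60, and for 403 adjacent 1 h peaks over 200 kb apart by 0.62. The Pearson correlation of the ratios was 0.24 over the 134 pairs (Spearman 0.25) and 0.08 over the 403 (0.10). Adjacent 1 h peaks 10 to 50 kb apart, just outside the rule, gave values near those of the members. Over 259 such pairs listed at both times the correlation was 0.19 (Spearman 0.19). Their median difference was 0.58, and 182 (70.3%) had the same sign. These are descriptions of 1 library at each time, whose depth all sites share. By spacing, the Pearson correlation was 0.18 at 5 to 10 kb (105 pairs), 0.42 at 2 to 5 kb (18 pairs) and 0.80 under 2 kb (11 pairs). The ratios had the same sign in 97 of the 134 pairs (72.4%). This held for 8 of the 11 under 2 kb, 15 of the 18 at 2 to 5 kb and 74 of the 105 at 5 to 10 kb. Farther apart it held for 162 of 263 pairs at 50 to 200 kb (61.6%) and 277 of the 403 over 200 kb (68.7%). In 91 of the 134 pairs (67.9%) the weaker neighbour had the higher ratio. Since the stronger neighbour was picked on its 1 h tags, the denominator of the ratio, its ratio is lowered by the picking itself. Of 129 clusters with at least 2 members listed at both times, 29 (22.5%) had another strongest member at 12 h and 35 (27.1%) had members with ratios of opposite sign.

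**Figure D5:**
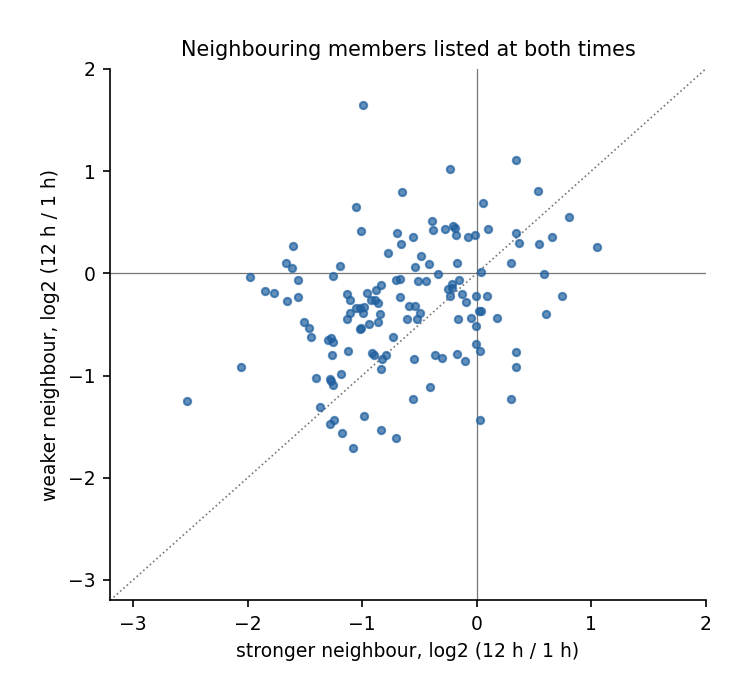
Log2 ratio of normalised tags, 12 h over 1 h, of the stronger (horizontal) and the weaker (vertical) of each of 134 adjacent pairs of members listed at both times; the dotted line marks equal ratios. The points are widely spread, and 91 lie above the line.

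The widest gap within a cluster was near Irf2, an interferon regulatory factor gene (chromosome 8, 46867496 to 46876307). There the stronger site held 1.14, 40 and 20.1 tags in the untreated, 1 h and 12 h libraries, and the weaker, 8.53 kb away, 1.52, 16 and 50.2. Their log2 ratios were -0.995 (-1.25 to -0.74) and 1.65 (1.38 to 1.93), the latter the highest of any member, so the order of the sites turned round. In Bcl2l1, which encodes the survival protein BCL-XL, tags at the main site were 288 (1 h) and 72.9 (12 h), and at its neighbour 37.4 and 36.4. Near Errfi1, a feedback inhibitor of the EGF receptor, members 77.6 and 68.6 kb away held 32.6 and 25 tags at 1 h and 15.7 and 39.1 at 12 h. Near Armc12 the strongest member held 139.7 and 18.9 tags, and another 25.8 and 17.2. These clusters were picked for their gaps, so the gaps are descriptions.

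Some 12 h peaks without a 1 h partner lay in clusters. Of 447 such peaks 18 lay within 10 kb of a member, touching 16 clusters, or 1.86 per 100 members, and 92 lay within 10 kb of a single peak, or 1.97 per 100. The 10 kb stretches around members overlap by the rule, so these rates do not cover like lengths of genome and are not densities. The 18 peaks near members held 9.82 to 64.2 tags, and 5 were centred within 0.6 kb of a member. In Tns1 such a peak of 64.2 tags lay 2.82 kb from the 342-tag member. In Vmp1 1 of 18.4 tags lay 1.11 kb from the member of 34.8 tags that was not listed at 12 h. Near Ampd3, an AMP deaminase gene, 1 of 29 tags lay 1.75 kb from a member of 103 tags not listed at 12 h, and the strongest member there had 159 tags (1 h) and 19.9 (12 h), the lowest log2 ratio of any member (-3.00, -3.22 to -2.78). Another lay 3.998 kb from the Orm3 member. The same 10 kb rule applied to the 12 h list gave 168 clusters of 359 peaks (12.5% of the list), 124 of them with at least 2 peaks that overlap 1 h members.

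Established glucocorticoid target genes were often near clusters. Of 28 such genes 10 had a member within 25 kb (35.7%), where 1.91% of all protein-coding genes did. They were Zbtb16, Ampd3, Per1, Mt2, Mt1, Ddit4, Tsc22d3, Dusp1, Klf9 and Errfi1, and 22 of the 28 had any 1 h peak within 25 kb, where 17.1% of all protein-coding genes did. Neighbouring genes can count the same peak, as Mt1 and Mt2 did. Of the circadian clock genes 3 of 19 had a member nearby, which were Tef, Per1 and Nfil3, and of the actin and adhesion genes 3 of 16, which were Tns1, Myh9 and Mical2. None of 18 genes for steroid receptors, their chaperones and cofactors had one, although 6 had a 1 h peak. None was found at 20 mammary epithelial, 15 housekeeping and 15 immune marker genes, of which 4, 5 and 2 had a 1 h peak. Against the share of 1.91% over all genes, lists of this length hold too few genes for a count of 0 to be read as a lack of clusters. The lists were chosen with earlier results of these data known. The counts at the target, clock and actin genes are therefore descriptions.

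In Per1, a repressor of the clock, members 2.35 kb apart held 106 and 128.5 tags at 1 h and 90.3 and 43.5 at 12 h, against 0.505 and 2.40 in untreated cells. The site of 106 tags was nearly level (-0.23, -0.37 to -0.10) and its neighbour lower (-1.56, -1.73 to -1.40). In Ampd3 a second cluster held 196 and 25.3 tags at 1 h and 104 and 14.7 at 12 h. Within 25 kb of Ddit4, an inhibitor of mTOR signalling, the member of 83.7 tags held 103 at 12 h and that of 27.8 was not listed, while farther out in the same cluster another held 77.4 and 32.9. The members of this cluster lay nearest to Anapc16, that of 83.7 tags at 13.1 kb against 22.5 kb from Ddit4. Near Dusp1, a MAP kinase phosphatase gene, the member of 45.7 tags was listed at 12 h (23.5) and its neighbour of 47.7 was not. Near Klf9, another Krüppel-like factor gene, the member of 37.5 tags was listed (38.1), and that of 26 tags, 0.832 kb away, was not. Near Errfi1 the members of 29.2 and 16.7 tags, 0.942 kb apart, gave 14.6 at 12 h and no listing.

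Near Tef, a clock output factor gene, the member of 195 tags held 128 at 12 h, and those of 33.6 and 21 were listed at 1 h alone. The members of 195 and 21 tags lay nearest to another gene, Tob2 (8.48 and 2.45 kb), and that of 195 was 12.9 kb from Tef. The Nfil3 cluster, of 27.7 and 12.8 tags, was not listed at 12 h. In Myh9, a non-muscle myosin gene, the member of 42.3 tags held 13.7 at 12 h (-1.63, -1.92 to -1.34), and that of 28.6 was not listed.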

How the data were processed

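GR ChIP-seq of cultured mouse cells gave 3 peak lists, 1 library each. The submitters' processing notes name bcl2fastq 2.17, Bowtie2 2.2.6 and HOMER, with the mm10 build. Per the file headers, the authors called peaks with fixed widths of 282 bp (1 h) and 302 bp (12 h), requiring 6 times the tags of the control library, 6 times the density of the local 10000 bp and a false discovery rate of 0.001. The control was the untreated library for both treated lists and the input for the untreated list. By its label that input came from cells given 600 nM corticosterone for 1 h.

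Tags per peak are a deposited signal, which the authors scaled to 10000000 tags per library. The caller score, the fold ratio over the control and over the local region, and the focus ratio (a fraction) are likewise the authors' deposited values. Per the file headers the untreated column of the treated lists holds tags at each site, scaled here by the untreated library's total. Total tags of the untreated peak are a count in the authors' deposited list. Peak centres set distances, and peaks under 564 bp (1 h) or 604 bp (12 h) apart were not called separately. Whole tags were recovered from the scaled values (100% within 0.1) and gave exact 95% binomial counting intervals of log2 ratios. Shares have Wilson 95% intervals. The reads carry no molecular identifiers and may repeat molecules, so these intervals cover counting error alone. The authors' deposited p-values were not used.

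Single peaks were weighted to the members' counts over 10 score classes, or over 5 score classes crossed with 5 local fold classes. Genes are the 21627 protein-coding ones of the RefSeq table (GRCm38.p6) on chromosomes 1 to 19 and X, named by nearest span. All 131 entries of the 7 gene lists matched, and members within 25 kb of an entry were counted even where another gene was nearer. Clusters are named by rule: the 10 with most members, and 5 each by highest summed score, by all of 3 or more members listed at 12 h, by none listed, by widest gap in log2 ratio and by 12 h peaks without a 1 h partner. 1 cluster of the last kind is not reported here. Members and lists were chosen with earlier results of these data known, and the promoter search was added after the data were seen. Alternatives were links of 5 and 20 kb, stricter overlap and score, matching on local fold, tags per base and other gene distances. The chain and weights were tested on simulated data with Python 3.11.15, numpy 2.4.6, pandas 2.3.3 and SciPy 1.17.1. Figures were drawn with matplotlib 3.10.9.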

Additional observations from a re-analysis of the deposited data

Results flagged for a closer look

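The list of untreated cells holds 1 peak, which no comparison above uses. It lies nearest to Pgk1 (chromosome X, 106186881 to 106187023), a gene of glycolysis, with 40 normalised tags and a fold of 44.2 over its input control in the authors' deposited list. That input is labelled as 1 h of corticosterone, not as untreated. The nearest 1 h peak is 1699 kb away and the nearest clustered one 28777 kb away. It was picked out because it is a signal in data outside the main measurement.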

How the results depend on the processing

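With links of 5 kb there were 395 clustered peaks in 195 clusters, of which 27 were listed at 12 h in full, 101 in part and 67 not at all; 39.7% of these peaks were listed, -14.5 points from single peaks of like strength. With links of 20 kb there were 1678 peaks in 710 clusters, 380 listed in part and 190 not at all. Matching on score and local fold gave 45.4% of single peaks and a difference of 2.48 points, whose interval (-0.91 to 5.88) spans both signs. Among peaks of at least 2 times the lowest score 55.4% of clustered and 65.1% of single peaks were listed, a difference of -9.71 points. Per base of the window, which is wider at 12 h, the median log2 ratio was -0.63 at clustered and -0.67 at single peaks. Within 100 kb 1 steroid receptor or cofactor gene had a clustered peak. Of all protein-coding genes 267 had one within 10 kb and 1099 within 100 kb. The other 32 values computed under alternatives kept their direction and stayed within the set limits. No paired analysis was possible because each condition has 1 library. No replicate could be left out for the same reason. Depth limits the lists through the caller's threshold of 75, which the score meets, and a site outside the 12 h list has no 12 h value.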
